A study of Mus musculus with 40 samples.

Results

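Peaks of the corepressors SMRT and NCoR and of the histone deacetylase HDAC3 were collected at 4 nuclear receptor genes of mouse liver, Ppara, Ppard, Pparg and Rxra. A peak was included when its centre lay inside one of these genes or within 50 kb of it, which gave 20 SMRT, 50 NCoR and 23 HDAC3 peaks. Peaks of different cofactors with centres at most 200 bp apart were joined into 1 site, and the 4 loci then held 52 of the 35999 sites in the genome. The lists came from chromatin immunoprecipitation followed by sequencing (ChIP-seq) in livers of ad libitum fed C57BL/6 males that carried floxed Bcl6 alleles without Cre (Bcl6 fl/fl, labelled wild type). Each of the 3 lists stood for 3 libraries pooled before peaks were called, held positions with no height, score or p-value, and therefore allowed no test between animals. The other 31 of the 40 samples were not analysed here. The genotype and the tissue could not be checked from positions, and no source used here gave the sequencing depth.

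Peroxisome proliferator-activated receptors (PPARs) are ligand-activated transcription factors that bind DNA as heterodimers with a retinoid X receptor, most often on the direct repeat DR1, in which a pair of AGGTCA-like half-sites is separated by a single base. PPARα, encoded by Ppara, drives fatty acid oxidation and ketogenesis in the fasted liver, PPARδ (Ppard) is broadly expressed and activates overlapping oxidative genes, and PPARγ (Pparg) is the adipocyte regulator whose γ2 isoform starts at an internal promoter. RXRα, encoded by Rxra, is the main retinoid X receptor of hepatocytes and also pairs with receptors for bile acids, oxysterols, xenobiotics and retinoic acid. Without ligand, such receptors can hold SMRT or NCoR, which activate HDAC3 on chromatin.

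The sequences below are those on which the description of the loci turns. They are NCoR peak intervals read from the plus strand of GRCm38 (mm10), with coordinates as the list gives them and both ends included. For each gene the site with all 3 cofactors that lay nearest to a start is shown. The Ppara intron 4 site, which had the most motif matches of the Ppara sites with all 3 cofactors, and the upstream one of the pair at the internal Pparg start were added after their values were seen. Capitals mark matches to the motifs described later, among them DR1 with at most 2 mismatches.
Ppara upstream site (chr15:85732643-85732871): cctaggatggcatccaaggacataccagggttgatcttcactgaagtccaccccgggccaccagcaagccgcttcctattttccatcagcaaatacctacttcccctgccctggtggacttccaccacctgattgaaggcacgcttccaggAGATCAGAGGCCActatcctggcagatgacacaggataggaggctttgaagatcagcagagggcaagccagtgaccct
Ppara intron 4 site (chr15:85787565-85787793): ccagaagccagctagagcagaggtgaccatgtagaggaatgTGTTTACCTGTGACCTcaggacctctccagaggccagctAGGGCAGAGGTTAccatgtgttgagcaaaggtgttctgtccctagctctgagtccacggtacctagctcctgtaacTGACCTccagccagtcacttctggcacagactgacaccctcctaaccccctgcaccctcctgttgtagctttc
Ppard intron 2 site (chr17:28240939-28241167): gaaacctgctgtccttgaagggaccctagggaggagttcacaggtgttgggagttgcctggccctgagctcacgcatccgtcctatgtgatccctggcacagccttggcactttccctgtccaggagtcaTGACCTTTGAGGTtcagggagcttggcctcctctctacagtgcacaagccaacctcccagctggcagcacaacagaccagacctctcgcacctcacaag
Pparg internal start, upstream site (chr6:115421033-115421261): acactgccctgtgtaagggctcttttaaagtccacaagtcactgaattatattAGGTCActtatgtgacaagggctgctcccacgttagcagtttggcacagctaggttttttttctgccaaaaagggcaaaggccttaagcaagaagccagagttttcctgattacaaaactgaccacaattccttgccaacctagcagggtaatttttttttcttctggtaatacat
Pparg internal start, nearest site (chr6:115421695-115421923): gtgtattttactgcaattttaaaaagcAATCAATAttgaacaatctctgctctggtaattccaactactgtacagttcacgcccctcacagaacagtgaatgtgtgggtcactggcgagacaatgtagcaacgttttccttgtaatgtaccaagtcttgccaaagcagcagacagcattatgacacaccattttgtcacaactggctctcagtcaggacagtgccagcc
Rxra intron 2 site (chr2:27740380-27740608): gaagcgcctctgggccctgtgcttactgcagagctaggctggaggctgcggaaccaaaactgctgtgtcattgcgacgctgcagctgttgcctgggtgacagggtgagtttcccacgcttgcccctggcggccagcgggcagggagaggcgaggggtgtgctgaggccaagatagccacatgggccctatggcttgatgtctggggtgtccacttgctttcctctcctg

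All 3 cofactors met at sites of each of the 4 genes, in numbers from 1 to 9. At least 1 such site was present at 39.2% of all coding genes. Sites with all 3 cofactors are called shared sites, and NCoR peaks with neither partner within reach NCoR-only sites. Ppara held 9 shared sites among 20, Ppard 4 among 11 and Pparg 4 among 7, whereas Rxra held 1 among 14. Across the loci 18 of 52 sites were shared, or 34.6% (exact 95% binomial interval 22.0 to 49.1%), beside 24.3% of all sites in the genome. NCoR-only sites made up 27 of the 52, or 51.9% (37.6 to 66.0%), beside 54.8% of all sites. Both backgrounds lay within these intervals, which here and below cover counting error only. The remaining 7 sites comprised 3 with NCoR and HDAC3, 2 with NCoR and SMRT and 2 with HDAC3 alone. NCoR and HDAC3 sites were 5.77% (1.21 to 15.9%), beside 14.4% of all sites. The other 2 classes were 3.85% each (0.469 to 13.2%), beside 4.04% for NCoR and SMRT and 1.18% for HDAC3 alone. No site of the 4 loci held SMRT without NCoR, a configuration that was rare genome-wide as well (357 SMRT-only sites and 78 with SMRT and HDAC3).

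**Figure D1:**
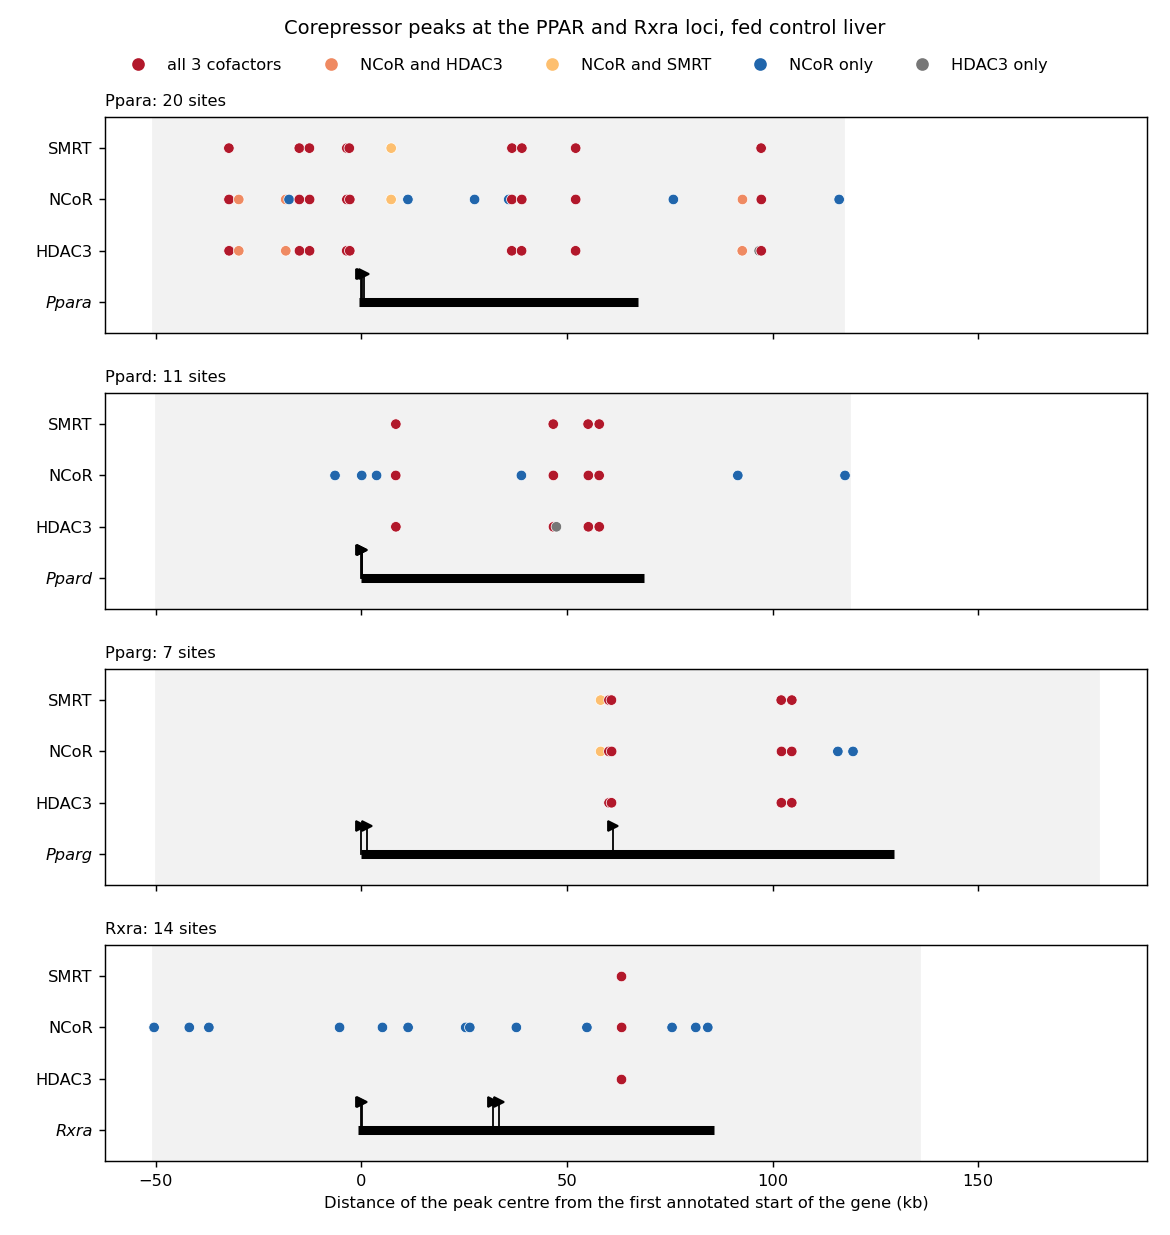
Peak centres of SMRT, NCoR and HDAC3 (rows) at the 4 loci, by distance in kb from the first annotated start of each gene. Black bars are the genes, arrows their annotated starts, the grey area the gene with 50 kb on either side, and colours the cofactors found at the site. Shared sites lie upstream of the gene, inside it and after it at Ppara, lie inside the gene at Ppard and Pparg, and number 1 at Rxra.

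Ppara (ENSMUSG00000022383.13, chr15:85734983-85802819, plus strand) was the most densely occupied of the 4 genes. Its locus held 10 SMRT, 19 NCoR and 13 HDAC3 peaks, where the median protein-coding gene had 0, 2 and 1. A total of 32 of 21911 protein-coding genes (0.146%) had at least 9 shared sites, and 91 (0.415%) had at least 20 sites of any class. Per 100 kb of locus Ppara had 5.36 shared sites, a density that 0.274% of genes reached. The other classes were 6 NCoR-only sites, 3 with NCoR and HDAC3, 1 with NCoR and SMRT and 1 with HDAC3 alone.

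The sites of Ppara fell into an upstream, an intronic and a downstream group. No site lay within the promoter interval (1000 bp upstream to 100 bp downstream of a start) of any of the 3 annotated Ppara starts. The nearest site was shared, and its centre lay 2807 bp upstream of the first start. It closed a run of 6 sites that spanned 15.6 kb, of which 4 were shared, at 2807, 3527, 12585 and 15081 bp upstream. Farther upstream, a shared site 32192 bp before the first start and an NCoR and HDAC3 site lay within the noncoding gene Lncppara. The latter sat 856 bp upstream of Mirlet7c-2, a let-7 microRNA gene, and so counted as a promoter site of that gene rather than of Ppara. Introns held 7 sites, 6 of them in intron 2, with the shared site printed above in intron 4. Intron 2 held 2 shared sites, 36025 and 38439 bp after the nearest start. The 5 downstream sites lay at the neighbouring genes, and 1 of them, 518 bp after the start of Ttc38, was shared.

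Ppard (ENSMUSG00000002250.16, chr17:28232700-28301474, plus strand) had 4 SMRT, 10 NCoR and 5 HDAC3 peaks. Here, NCoR alone was found at the start of the gene. An NCoR-only peak was centred 3 bp after one of its 3 annotated starts, in the noncoding part of exon 1, and further NCoR-only sites lay 6407 bp upstream and 3617 bp downstream of the starts. The 4 shared sites were all intronic. The first was 8271 bp after the nearest start in intron 2, and the other 3 lay in introns 2 and 3, between 46615 and 57746 bp after it. Those 3 lay closer to the start of the next coding gene, Fance, than to a Ppard start. At least 4 shared sites were present at 1121 genes (5.12%), and at least 11 sites at 1233 genes (5.63%).

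Pparg (ENSMUSG00000000440.12, chr6:115360951-115490399, plus strand) had 5 SMRT, 7 NCoR and 4 HDAC3 peaks, and all 7 of its sites lay inside the gene. Its first start and a second start 1341 bp further on, which encode a protein of 475 residues in the annotation, had no site nearer than 56838 bp. An internal start, at position 115422066, is that of the annotated transcript with a longer protein of 505 residues. A group of 3 sites spanned 2.68 kb before this internal start, at 2936 bp upstream (NCoR and SMRT), 919 bp upstream (shared) and 257 bp upstream (shared). The next pair of sites was shared too, in coding exon 6 and in intron 6, whereas the 2 sites in intron 7 held NCoR alone. The intron 6 site also lay 623 bp upstream of the start of Gm44079, an antisense transcript. In number of sites Pparg was ordinary, since 4174 genes (19.0%) had at least 7. Of these 7 sites 4 were shared, or 57.1% (18.4 to 90.1%).

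Rxra (ENSMUSG00000015846.14, chr2:27676440-27762957, plus strand) was covered by NCoR with almost no SMRT or HDAC3. Its locus held 14 NCoR peaks but 1 SMRT and 1 HDAC3 peak, and both of the latter belonged to a single shared site in intron 2, which is printed above. With 100 kb on either side the number of shared sites was 3. The other 13 sites were NCoR-only, a number that 48 genes (0.219%) reached, whereas 39.2% of genes had 1 shared site or more. Those 48 genes, Rxra among them, had a median of 6 shared sites, and 3 of them had no more than 1. The median length of their loci was 453 kb, and that of Rxra was 187 kb. The NCoR-only sites were spread along the locus, with 4 upstream, 6 in intron 1, 1 each in introns 6 and 9, and 1 in the noncoding part of exon 10. None was at a promoter. The 4 annotated starts had their nearest sites between 4315 and 5606 bp away, each NCoR-only, and the nearest shared site was 29911 bp from a start.

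**Figure D2:**
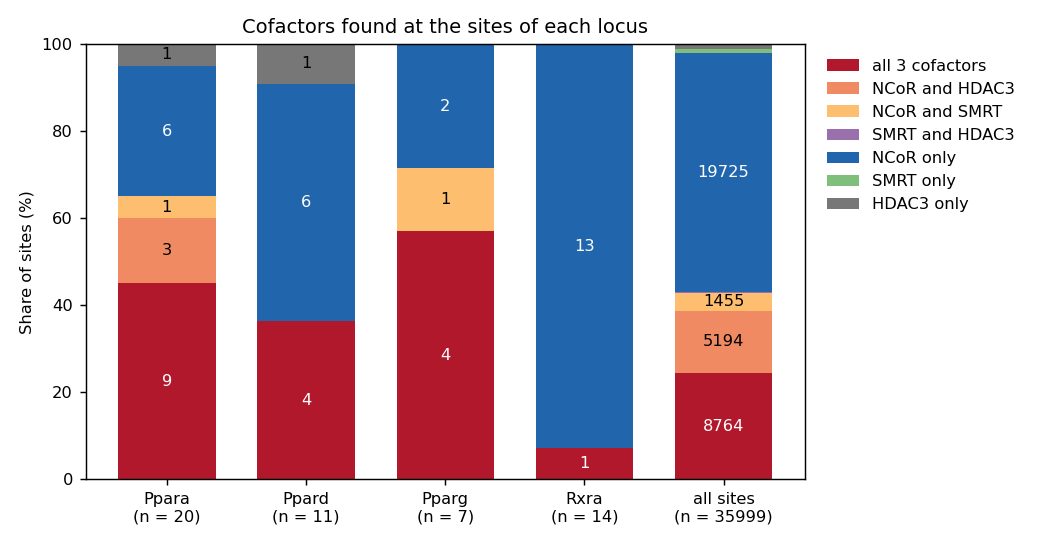
Share of sites (%) by the cofactors found there, for each locus and for all sites of the genome. Numbers in the bars count sites, and segments under 4% carry none. Shared sites make up 45.0% at Ppara, 36.4% at Ppard, 57.1% at Pparg and 7.14% at Rxra, beside 24.3% of all sites.

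The same sites were also counted by the partners of each NCoR peak. An NCoR peak had a SMRT centre within 200 bp in 10 of 19 cases at Ppara (52.6%, interval 28.9 to 75.6%), 4 of 10 at Ppard, 5 of 7 at Pparg and 1 of 14 at Rxra (7.14%, 0.181 to 33.9%). All together this was 20 of 50 peaks, or 40.0% (26.4 to 54.8%), beside 29.0% of all NCoR peaks. An HDAC3 centre was in reach of 12 of 19 peaks at Ppara, 4 of 10 at Ppard, 4 of 7 at Pparg and 1 of 14 at Rxra. The total of 21 in 50, or 42.0% (28.2 to 56.8%), was near the 39.7% of all NCoR peaks. For HDAC3 the Rxra interval (7.14%, 0.181 to 33.9%) lay below that share, whereas those of the PPAR genes included it. The intervals of the share of shared sites ran for Ppara from 23.1 to 68.5%, for Ppard from 10.9 to 69.2%, for Pparg from 18.4 to 90.1% and for Rxra from 0.181 to 33.9%. Each included the 24.3% of all sites and overlapped the others. Overlap of such intervals does not compare the genes, and the order of the 4 genes was not tested. Among the 1704 genes with at least 10 sites, the median share of shared sites was 25.0% and the quartiles were 16.7 and 35.7%. Ppara, at 45.0%, was reached by 10.7% of these genes and Ppard, at 36.4%, by 24.8%, whereas 6.22% had a share as low as that of Rxra.

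**Figure D3:**
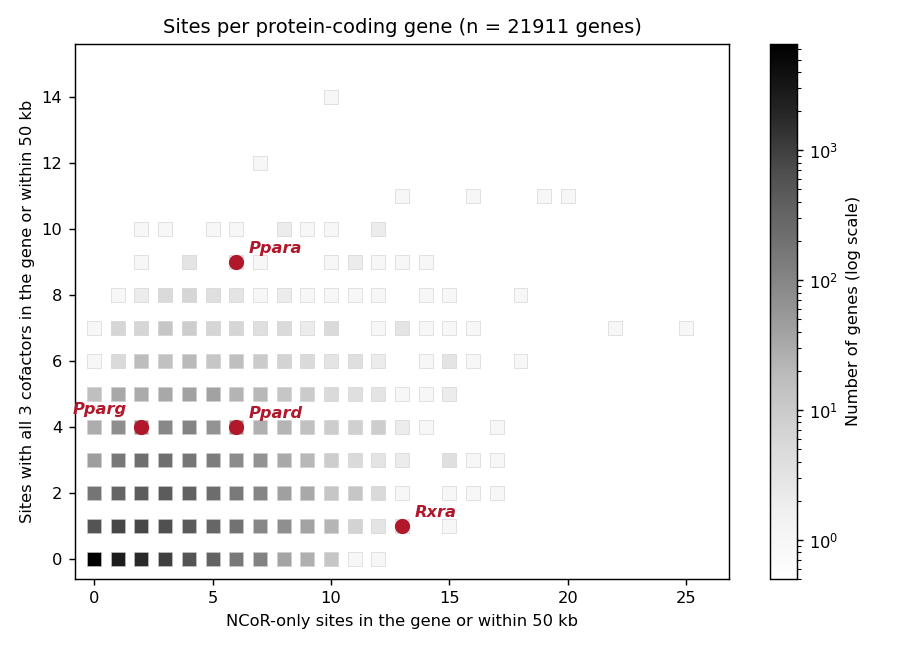
NCoR-only sites (x axis) and shared sites (y axis) in each protein-coding gene or within 50 kb, with the shade giving the number of genes at a position on a log scale. Ppara is at 6 NCoR-only and 9 shared sites, Rxra at 13 and 1, Ppard at 6 and 4 and Pparg at 2 and 4. At least 9 shared sites were present at 32 genes, and at least 13 NCoR-only sites at 48. Beyond the axes lie 2 genes.

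The counts were also set beside those of genes of like length. Of 1548 coding genes within 20% of the length of Ppara, 3 had at least 9 shared sites (0.194%), and 2 had exactly 9, Por (which encodes the electron donor of microsomal cytochrome P450 enzymes) and Wbp1l. For Ppard, 106 of 1533 genes of like length (6.91%) had at least 4 shared sites, and for Pparg 106 of 966 (11.0%). At least 1 shared site was found in 51.3% of the 1298 genes of like length to Rxra. With 51, 30 and 304 genes tied, no gene was singled out by its likeness to these 3.

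Sites at the 4 loci lay close to each other. Another site was present within 10 kb for 46 of 52 sites (88.5%, 76.6 to 95.6%), compared with 63.0% of all sites. This held for 17 of the 18 shared sites (71.9% of all shared sites) and for 22 of the 27 NCoR-only sites (58.0% of all). Neighbours count for each other, so the 52 sites are not independent and the interval of 76.6 to 95.6% is too narrow. The run with the most sites was that of 6 over 15.6 kb upstream of Ppara, followed by 5 sites over 18.9 kb in Ppard, of which 3 were shared. Promoter intervals of any annotated gene held 8 of the 52 sites (15.4%, 6.88 to 28.1%), beside 13.0% of all sites. Of the 18 shared sites 3 were at a promoter (16.7%, 3.58 to 41.4%), beside 8.20% of all shared sites. They were the Pparg sites 919 and 257 bp upstream of the internal start and the one in intron 6, at Gm44079. Ppard and Pparg had a site at a promoter of their own, as did 17.4% of coding genes, and Ppara and Rxra had none.

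Within shared sites the cofactor centres lay close together, which joining centres at most 200 bp apart brings about by construction. At the 18 shared sites the SMRT centre lay a median of 30 bp from the NCoR centre (range 1 to 128 bp) and the HDAC3 centre a median of 23 bp (2 to 50 bp). For all 8764 shared sites the medians were 23 and 21 bp. The widest offset was that of SMRT at the Ppara site 2807 bp upstream, and the narrowest that of SMRT in Ppara intron 4.

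Some sites counted by distance to a receptor gene lay nearer to the start of a neighbour. By nearest coding start, 13 of the 20 sites of the Ppara locus belonged to Ppara, 3 to Cdpf1, 3 to Ttc38 and 1 to Gtse1. For shared sites this left 6 with Ppara, 2 with Cdpf1, both inside Ppara introns, and 1 with Ttc38. At the Ppard locus 5 sites belonged to Ppard and 4 to Fance, which encodes a DNA repair protein, although those 4 lay inside Ppard. One site each belonged to Rpl10a, a ribosomal protein gene, and Tead3, a transcription factor gene. All sites of the Pparg and Rxra loci belonged to those genes. The limit of 50 kb fell between sites at several edges. At Rxra an NCoR-only site 49.6 kb before the gene was counted and an NCoR and HDAC3 site at 51.4 kb was not, and at Ppara a shared site at 52.0 kb upstream was left out. After the gene, Ppara had an NCoR-only site at 48.9 kb inside the limit and another at 53.8 kb outside it. An NCoR-only site 51.6 kb after the end of Pparg was also left out.

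The DNA of the sites was searched for fixed motif strings on both strands, in 200 bp around the centre. The DR1 string of PPAR/RXR and HNF4 was in none of the 50 NCoR peaks (exact interval 0 to 7.11%) and in 1.54% of all NCoR peaks. When 2 copies of AGGTCA separated by 1 base were allowed up to 2 mismatches, 7 of 50 peaks matched (14.0%, 5.82 to 26.7%), beside 12.9% of all. The single half-site AGGTCA was in 19 of 50 (38.0%, 24.7 to 52.8%), beside 36.2% of all. By class, 10 of 18 shared sites (55.6%, 30.8 to 78.5%) had the half-site, beside 39.6% of all shared sites, and 9 of 27 NCoR-only sites (33.3%, 16.5 to 54.0%), beside 34.4%. Of the 10 shared sites with it, 7 were among the 9 of Ppara, 2 among the 4 of Ppard and 1 among the 4 of Pparg. The BCL6/STAT string (TTCCNAGAA, TTCCNGGAA, TTCTNAGAA or TTCTNGGAA) was in none of the 50, beside 3.85% of all NCoR peaks. An absent match says only that these letters were not in the window.

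In the printed sequences, the Ppara upstream site had a DR1 with 2 mismatches (AGATCAGAGGCCA, bases 152 to 164) and no other match. The Ppara intron 4 site had the forkhead (FOX) string TGTTTAC at bases 42 to 48 and the half-site, on the minus strand, at bases 52 to 57 and 157 to 162. A DR1 with 1 mismatch (TTACCTGTGACCT, bases 45 to 57) overlapped the FOX string and the first of these half-sites, and another with 2 mismatches stood at bases 81 to 93. In the Ppard intron 2 site, a half-site, an HNF4 half-site (TGACCTTTG) and a DR1 with 2 mismatches all began at base 131 and therefore count the same letters. The upstream site at the internal Pparg start had AGGTCA at bases 54 to 59. The site nearest to that start had the HNF6/CUX2 string, as AATCAATA on the minus strand, at bases 28 to 35. The Rxra intron 2 site had no match to any of the strings.

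Other motifs of liver factors were in few of the peaks, with shares whose intervals included those of all NCoR peaks. The HNF4 half-site (CAAAGGCCA, CAAAGGTCA, CAAAGTCCA or CAAAGTTCA, of which CAAAGGTCA contains AGGTCA) was in 3 of 50 peaks and 7.85% of all, and HNF6/CUX2 (TATCGATC, TATCGATT, TATTGATC or TATTGATT) in 3 of 50 and 5.67%. FOX was in 1 of 50 and 7.74%, and C/EBP (TTACGCAA, TTATGCAA, TTGCGCAA or TTGTGCAA) in 1 of 50 and 5.52%. The ERR string (TCAAGGTCA or TGAAGGTCA, which both contain AGGTCA), the ETS/ELK string CCGGAAGT and the CTCF string were in none, beside 2.18, 0.757 and 0.512% of all NCoR peaks. For these 3, a count of 0 in 50 peaks allows a share of up to 7.11%.

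Shared sites were also present at most genes of the receptor and target lists. Of 13 further receptors that are RXR paralogues or RXR partners, 11 had at least 1 shared site within 50 kb (84.6%, 54.6 to 98.1%), with a median of 2, beside 39.2% of all coding genes and a median of 0. Nr1i3, the xenobiotic receptor CAR, had 5 shared sites among 12, Rarg, a retinoic acid receptor, 4 among 9, and Nr1i2, the xenobiotic receptor PXR, 3 among 6. With shared sites assigned to the nearest coding start at any distance, Nr1i3 and Rarg had 1 each and Nr1i2 had 3. By this rule 9 of the 13 receptors had at least 1, and the share of all coding genes by it is not given here. The 39.2% holds only for the limit of 50 kb. The RXR paralogues Rxrb and Rxrg had 1 shared site each within 50 kb, as Rxra did, among 4 sites and 1 site. By nearest start Rxrb had 0 and Rxrg had 1. Vdr, the vitamin D receptor, had 3 sites, all NCoR-only, and Nr1h2, the oxysterol receptor LXRβ, had no site. Thrb, a thyroid hormone receptor, had 16 NCoR-only sites and 3 shared ones over a locus of 478 kb.

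Among 9 coactivators, 5 had a shared site (55.6%, 21.2 to 86.3%), an interval that included the 39.2% of all coding genes. Ppargc1b, a relative of PGC-1α, had 6 among 14 sites, Ncoa3 had 3 among 16 and Ncoa1 had 2 among 5. By nearest start these 3 had 6, 1 and 2. Ppargc1a, which encodes PGC-1α itself, had 1 shared site within 50 kb but 4 by nearest start. Med1, Crebbp, Ep300 and Lpin1 had no shared site, although each had at least 1 NCoR peak. All 24 textbook target genes of PPARα had a shared site (85.8 to 100%), with a median of 3. Acot1, an acyl-CoA thioesterase, had 7 shared sites among 16, and Pdk4, the kinase that inhibits pyruvate dehydrogenase, 6 among 8. By nearest start 23 of the 24 had a shared site, with 4 for Acot1 and 6 for Pdk4. The share of all coding genes by nearest start is not given here, and the 39.2% is not its counterpart. The counts add to 84 over the target genes but rest on 76 distinct sites, since neighbours such as the Cyp4a genes share them. The lists were chosen with results of these data known, and the background is all coding genes rather than those expressed in liver, so the shares describe the lists without a test.

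**Figure D4:**
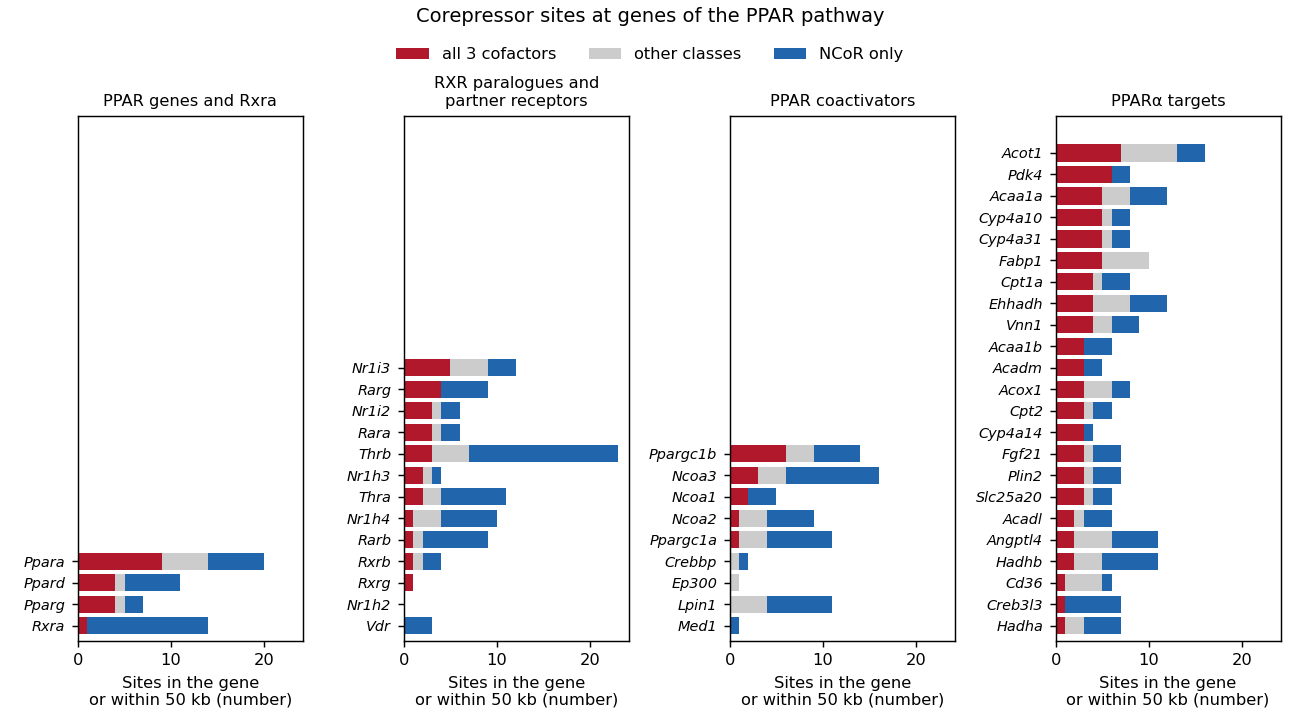
Number of sites in each gene or within 50 kb, for the 4 receptor genes and 3 lists of pathway genes, divided into shared (red), NCoR-only (blue) and other classes (grey). Ppara has the longest red bar with 9 shared sites, Rxra has 1 beside 13 NCoR-only sites, and each PPARα target drawn has at least 1.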

How the data were processed

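ChIP-seq was performed by the authors in biological triplicate. Per their methods and processing notes, reads were aligned to mm10 with Bowtie, peaks were called with HOMER on pooled replicates against input, and the authors kept peaks that passed thresholds of DESeq2 on the individual libraries. The deposited lists give a chromosome, start and end per peak, with no other value, and intervals of 212, 228 and 212 bp (end minus start) for SMRT, NCoR and HDAC3. Whether starts count from 0 or 1 is not given in the sources used here. All peaks on 21 chromosomes lay within GRCm38 lengths.

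Using python 3.11.15, peaks with centres at most 200 bp apart were joined by single linkage and placed on the GENCODE vM21 basic annotation (21911 coding symbols, 1 record each). A site was placed at its NCoR centre where it had one. Shares carry exact (Clopper-Pearson) 95% binomial intervals (scipy 1.17.1), which cover counting only. A shorter list can come from fewer reads, a weaker antibody or fewer bound sites, and these cannot be told apart. Motif and merging steps were tested on simulated data. The 4 genes and the gene lists were chosen with earlier results of these data known. Named genes were the 4 receptors, genes with the nearest start to their sites, and per list the 3 genes with most shared sites (ties by symbol) and those with no peak. A gene that the rule would name is not reported here. Rxrb, Rxrg, Vdr, Thrb, Ppargc1a and the coactivators without a shared site were named after their values were seen.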

Additional observations from a re-analysis of the deposited data

How the results depend on the processing

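Counts of the 4 loci and of the gene lists were recomputed with 1 choice changed at a time, each under some of the choices. These were loci of 20 or 100 kb, centres at most 100 or 400 bp apart and NCoR peaks as the unit. Others were neighbours within 5 kb, starts of all genes, promoters of 5 kb on either side and motif windows of 100 bp. Another DR1 search changed the string and allowed mismatches together. The gene lists were recomputed only with loci of 20 kb and by nearest coding start. Ranks among all genes, comparisons with genes of like length and offsets between centres were not among the recomputed counts. Of 37 recomputed main counts 33 stayed within 1.5 times their value and 4 moved further. The sites with NCoR and HDAC3 numbered 1 with loci of 20 kb and 7 with loci of 100 kb, against 3. The sites at a promoter numbered 19 with promoters of 5 kb, against 8, and the peaks with a DR1 numbered 7 when 2 copies of AGGTCA around any base were allowed 2 mismatches, against 0 for the stricter string. Of 49 recomputed counts of single loci or motifs, 47 stayed within 1.5 times. The exceptions were the shared sites of Rxra, which numbered 3 with loci of 100 kb, and the FOX match, which was absent from windows of 100 bp. The wider limits take in more sites by construction. A stricter peak threshold was not run, because the lists carry no score, and no replicate could be left out. No paired analysis was possible because the replicates of a cofactor were pooled into 1 list. Depth limits the absence of SMRT or HDAC3 at a site: it is the absence of a called peak.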
